A study of Mus musculus with 12 samples.

Results

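Transcripts of 9 genes that encode ion channel subunits of islet cell excitability were examined in sorted mouse islet cells. They were Abcc8 and Kcnj11 (the ATP-sensitive potassium channel), Cacna1a, Cacna1c and Cacna1d (pore subunits of voltage-gated calcium channels), Scn3a and Scn9a (pore subunits of voltage-gated sodium channels), and Trpm4 and Trpm5 (calcium-activated cation channels). They were found by matching these symbols to the gene identifiers of a table of 52962 genes, and all 9 were among the 15598 genes with enough reads to be tested. The 12 samples came from islets of NOD females, mice prone to spontaneous autoimmune diabetes, dispersed and sorted by autofluorescence into a β-cell and a non-β-cell fraction at 4 or 8 weeks of age. Each of the 4 groups had 3 replicates. No mouse was treated, all mice were of the NOD genotype, and no other strain was part of the series. By the methods of the study, islets were cultured overnight before dispersal, the sort excluded cells carrying the leukocyte antigen CD45, and each sample pooled several mice.

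In a β-cell, a rise in ATP made from glucose closes the ATP-sensitive potassium channel, which is built from the pore Kir6.2 (Kcnj11) and the sulfonylurea receptor SUR1 (Abcc8). The membrane then depolarizes, calcium enters through voltage-gated channels, and insulin granules are released. Voltage-gated sodium channels carry part of the upstroke of islet action potentials, and the TRPM4 and TRPM5 cation channels pass sodium when calcium inside the cell rises. α-cells, the main cells of a mouse non-β fraction, are electrically active too and use many of the same channels.

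The main contrasts lay between the cell fractions and in a pair of genes. Trpm5 was 77.5-fold (4 weeks) and 47.1-fold (8 weeks) higher in the β than in the non-β fraction, and Scn3a was 17.6-fold and 12.3-fold lower. Abcc8 and Cacna1a were lower in β-cells at 4 weeks. From 4 to 8 weeks, Abcc8, Cacna1a and Scn9a rose in β-cells, and no channel gene of the 9 passed the test for age in non-β-cells. The difference between the fractions in their change with age passed the test for 0 of the 9 genes, so the rises are not shown to be particular to β-cells. Leaving out a β-cell sample gave 0 to 3 passing genes for age in β-cells. Differences were tested with limma-voom, fitted to the 12 samples together, and a call means a Benjamini-Hochberg adjusted p under 0.05, taking every tested gene into the adjustment.

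The samples held 13755106 to 27040652 estimated counts, and levels are given as CPM, counts that TMM scaled to a library size common to all samples. The summed CPM of 8 β-cell markers was 46322 to 112521 in β-cells and 2877 to 5840 in non-β-cells, and that of 6 α-cell markers was 106007 to 135699 in non-β-cells. Each fraction held some RNA of the other, since Gcg (glucagon) in β-cells was at 6.36% of its non-β level at 4 weeks and 1.62% at 8 weeks, and Ins2 (insulin) in non-β-cells was at 1.72% and 2.45% of its β level. These are bulk samples, in which fewer cells of a type and less RNA per cell cannot be told apart.

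The 2 samples numbered 3 at 4 weeks, 1 in each fraction, stood apart in a way that touches the long channel transcripts. In the β-cell sample, the genes with coding transcripts of 7926 to 13162 bases (Cacna1a, Cacna1c, Cacna1d, Scn3a and Scn9a) were at 34.5% to 60.0% of the mean of the other 2 replicates. In the non-β sample they were at 50.0% to 64.0%. The 4 shorter genes (3142 to 4877 bases) were at 74.1% to 129% and at 91.8% to 109%. Over all genes with a mean log2 CPM of at least 3, the same β-cell sample was shifted by 0.48 (log2 median) for transcripts under 2 kb and by -0.83 for those over 8 kb. The corresponding medians in the non-β sample were 0.31 and -0.62. Results on the long genes are therefore also given without these samples, and the part of transcript length or RNA quality in them was not tested.

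**Figure D1:**
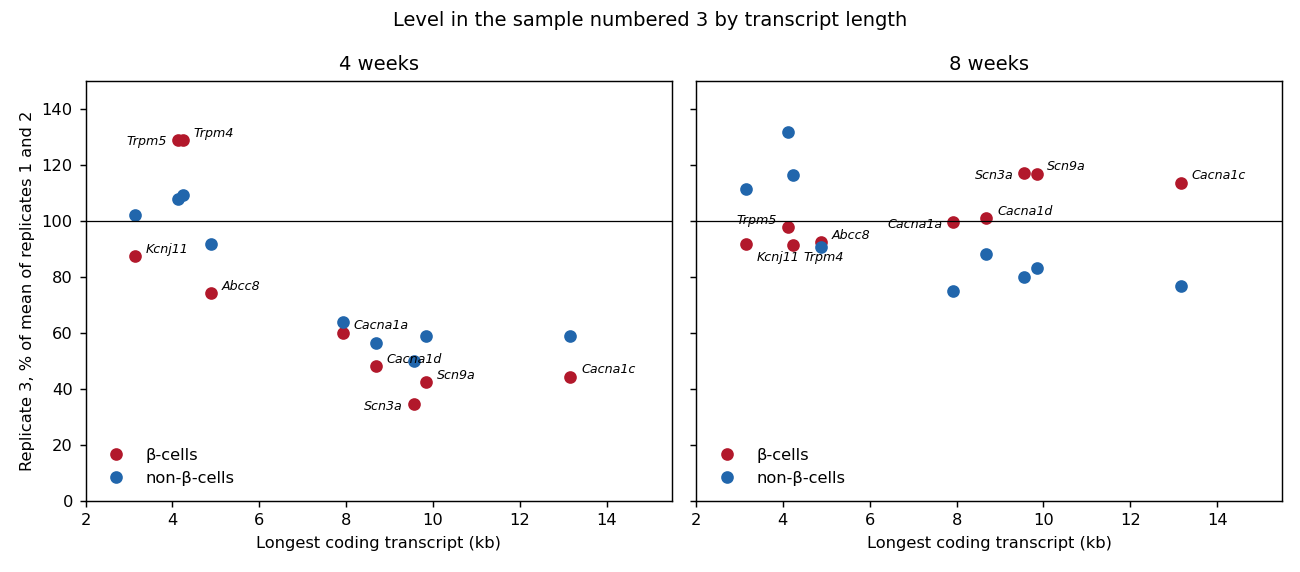
Level in the sample numbered 3 of each group, as a percentage of the mean of the other 2 replicates, against the length of the longest coding transcript in kb; each point is 1 of the 9 genes (names beside the β-cell points), red for β-cells and blue for non-β-cells. At 4 weeks the 5 genes with the longest transcripts lay between 34.5% and 64.0% in both fractions, and at 8 weeks they lay between 74.9% and 117%.

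Of the 9 genes, 4 passed the test between fractions at 4 weeks, 1 higher and 3 lower in β-cells, against 48.5% of all tested genes. At 8 weeks 2 passed, 1 in each direction, against 49.2%. For age, 3 rose and 0 fell in β-cells, where 17.9% of all genes were called (8.59% rising, 9.35% falling). Leaving out replicate 1 or 2 of the 8-week β-cells ended all 3 calls, and leaving out replicate 3 left 1. Markers of other cell types moved with age in the same fraction: the summed CPM of 4 acinar markers went from 65.2 to 131 at 4 weeks to 326 to 672 at 8 weeks, with all 4 called, and 1 of 5 mesenchymal markers, Col1a2, rose by 2.06. The β-cell marker sum itself went from 46322 to 81304 up to 106957 to 112521. Their part in the rises of the channel genes was not tested. In non-β-cells limma-voom called 0 in either direction, where 16.4% of all genes were called (11.6% rising, 4.80% falling). At an unadjusted p under 0.05, 1 of the 9 (Scn3a) passed in non-β-cells, and DESeq2 called 1 (Trpm5) and edgeR 0. The median log2 difference of the 9 genes was 0.39 for age in the β and 0.18 in the non-β fraction, beside 0.02 and 0.01 over all tested genes. The long genes, low in the 4-week samples numbered 3, enter both medians of the 9, which are not given without those samples. The difference between the fractions in their response to age, the interaction, was called for 0 of the 9 genes and for 5.13% of all genes (1.80% with a positive and 3.33% with a negative difference, β minus non-β). At an unadjusted p under 0.05 the limma-voom interaction test passed for 1 gene, Abcc8, and after adjustment edgeR and DESeq2 called 0.

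**Figure D2:**
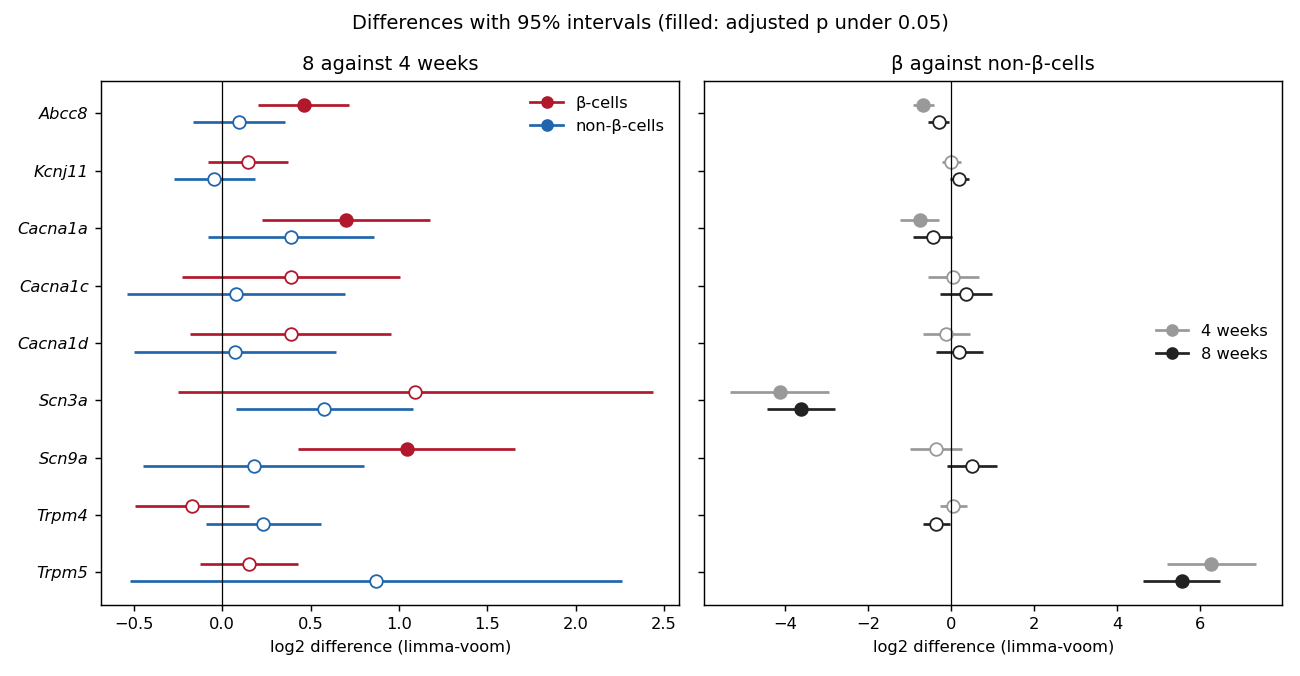
Log2 difference of each of the 9 genes with its 95% interval, for 8 against 4 weeks in each fraction (left) and for β-cells against non-β-cells at each age (right); filled points had an adjusted p under 0.05. Trpm5 (6.28 and 5.56) and Scn3a (-4.13 and -3.62) stand far from 0 on the right, and the other genes lie within 0.76 of it.

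Abcc8 was the most abundant of the 9 transcripts. It encodes SUR1, the regulatory subunit that sulfonylurea drugs bind, and lies at chr7:46104523-46180033 on the minus strand of GRCm38. For replicates 1, 2 and 3 in turn, its level was 901, 864 and 654 CPM in 4-week and 1113, 1147 and 1044 CPM in 8-week β-cells. Non-β samples held 1275, 1340 and 1199 CPM and then 1384, 1420 and 1272 CPM. Every β-cell sample at 8 weeks was above every β-cell sample at 4 weeks, and every non-β sample was above every β-cell sample. Abcc8 rose with age in β-cells by 0.46 ± 0.12 (log2, SE; limma-voom adjusted p = 0.0179), from 807 ± 133 to 1101 ± 52.5 CPM (SD, n = 3). Against non-β-cells it was lower in the β fraction by -0.67 ± 0.12 at 4 weeks (adjusted p = 0.000559). At 8 weeks the difference of -0.30 ± 0.12 had an adjusted p of 0.051, although the groups did not overlap. Without the 4-week samples numbered 3, the rise was 0.32 and remained past the threshold (limma-voom adjusted p = 0.00724). Leaving out β-cell replicate 1 or 2 at 8 weeks, or modelling the β-cell samples alone, gave 0.43 to 0.46 with adjusted p-values of 0.0566 to 0.0831 in limma-voom.

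Kcnj11, the pore of the same channel, passed no test between groups. It lies 3758 bases from Abcc8 on the same strand, at chr7:46093953-46100764, has a single coding exon in its longest transcript, and no protein-coding gene lies between them. Its level was 219, 203 and 184 CPM in 4-week and 225, 234 and 210 CPM in 8-week β-cells. In the non-β fraction, levels were 202, 197 and 204 CPM at 4 weeks and 170, 208 and 210 CPM at 8 weeks. The groups overlapped in all 4 comparisons. The age difference in β-cells was 0.15 with a 95% interval of -0.08 to 0.37, and that between fractions was 0.00 (-0.23 to 0.23) at 4 weeks and 0.19 (-0.04 to 0.42) at 8 weeks, on the log2 scale. Across the 12 samples the log2 CPM of Kcnj11 and Abcc8 had a Pearson correlation of 0.02, given as a description of samples that share groups and scaling.

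Among the calcium channel pores, Cacna1a differed between groups the most. It encodes the P/Q-type pore Cav2.1, which is also the main presynaptic calcium channel of many central neurons, and lies at chr8:84388440-84640246 on the plus strand. Cacna1a was at 104, 111 and 64.4 CPM in 4-week and 157, 139 and 147 CPM in 8-week β-cells. Non-β samples held 175, 181 and 114 CPM at 4 weeks and 247, 197 and 166 CPM at 8 weeks. In both fractions the lowest 4-week value was that of the sample numbered 3, and all 8-week β-cell values exceeded all 4-week ones. Cacna1a rose in β-cells by 0.70 ± 0.22 (log2, SE; limma-voom adjusted p = 0.0425). At 4 weeks it was lower in the β fraction than in non-β-cells (-0.76 ± 0.22, limma-voom adjusted p = 0.0125), and at 8 weeks the difference was -0.45 ± 0.22 (adjusted p = 0.106). The rise was 0.45 without both 4-week samples numbered 3 (limma-voom adjusted p = 0.0296) and 0.46 without the β-cell one alone (adjusted p = 0.133). Leaving out any β-cell sample at 8 weeks also ended this call, with adjusted p-values of 0.0831 to 0.135 in limma-voom, as did edgeR (0.0555). The 4-week call ended without non-β replicate 1 or 2 (adjusted p = 0.0534 and 0.0535 in limma-voom).

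Cacna1c and Cacna1d encode the L-type pores Cav1.2 and Cav1.3, the targets of dihydropyridine blockers. Cacna1c was at 240, 211 and 99.7 CPM in 4-week and 223, 208 and 245 CPM in 8-week β-cells. Non-β samples had 186, 209 and 117 CPM at 4 weeks and 200, 183 and 147 CPM at 8 weeks. The low value of each 4-week group was again the sample numbered 3, and the other samples of a fraction overlapped between ages. Cacna1d was at 156, 165 and 77.0 CPM in 4-week and 169, 158 and 165 CPM in 8-week β-cells. In non-β-cells Cacna1d was at 165, 164 and 92.7 CPM and then at 158, 140 and 131 CPM. Neither L-type gene passed the test for age in β-cells, with differences of 0.39 (95% interval -0.23 to 1.00) for Cacna1c and 0.39 (-0.18 to 0.96) for Cacna1d. Without the samples numbered 3 at 4 weeks, those differences were -0.0015 for Cacna1c and 0.03 for Cacna1d. Between fractions at 4 weeks, Cacna1c differed by 0.05 (-0.56 to 0.67) and Cacna1d by -0.12 (-0.68 to 0.45). With each sample's trend on transcript length removed, an alternative chosen after seeing the data, these became 0.63 for Cacna1c (limma-voom adjusted p = 0.000104) and 0.28 for Cacna1d (adjusted p = 0.0344).

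The L-type genes also varied together over the 12 samples, with a Pearson correlation of 0.95 between their log2 CPM, to which the shared low samples contribute. Of the 9 genes, Cacna1c, Cacna1d, Scn9a and Trpm5 had entries in the RefSeq promoter table (GRCm38.p6), with 7 start sites in all. Cacna1c and Cacna1d each have an internal start preceded by a stretch very rich in G and C, with 82.8% and 86.4% GC in the 250 bases before it, beside a median of 52.4% over 32851 entries. Gene-level counts do not show which start was used. These sequences are shown because both hold repeats of the GC box, CCGCCC. Capitals mark every match on either strand to CCGCCC, to the E-box CANNTG, to TAATTA, to TGCTGA and to TATAAA, and neighbouring GC boxes overlap. The Cacna1c window is chr6:119108496-119108745 and the Cacna1d window is chr14:30353487-30353736, both on the minus strand and printed 5′ to 3′.
Cacna1c, second start: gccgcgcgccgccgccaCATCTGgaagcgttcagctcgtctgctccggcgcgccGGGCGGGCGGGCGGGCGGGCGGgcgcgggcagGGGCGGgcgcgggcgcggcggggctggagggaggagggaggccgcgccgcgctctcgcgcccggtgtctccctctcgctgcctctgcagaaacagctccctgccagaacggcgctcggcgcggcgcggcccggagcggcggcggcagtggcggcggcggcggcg
Cacna1d, second start: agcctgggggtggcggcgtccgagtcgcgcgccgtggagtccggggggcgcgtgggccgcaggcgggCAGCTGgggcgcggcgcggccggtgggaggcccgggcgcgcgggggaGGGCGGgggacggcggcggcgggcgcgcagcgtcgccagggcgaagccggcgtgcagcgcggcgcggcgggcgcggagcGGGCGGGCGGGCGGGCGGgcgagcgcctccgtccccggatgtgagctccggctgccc
The first window holds 6 matches to CCGCCC and the second 5, and each holds 1 E-box. A CCGCCC match was present in 32.7% of all entries and an E-box in 66.2%.

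**Figure D3:**
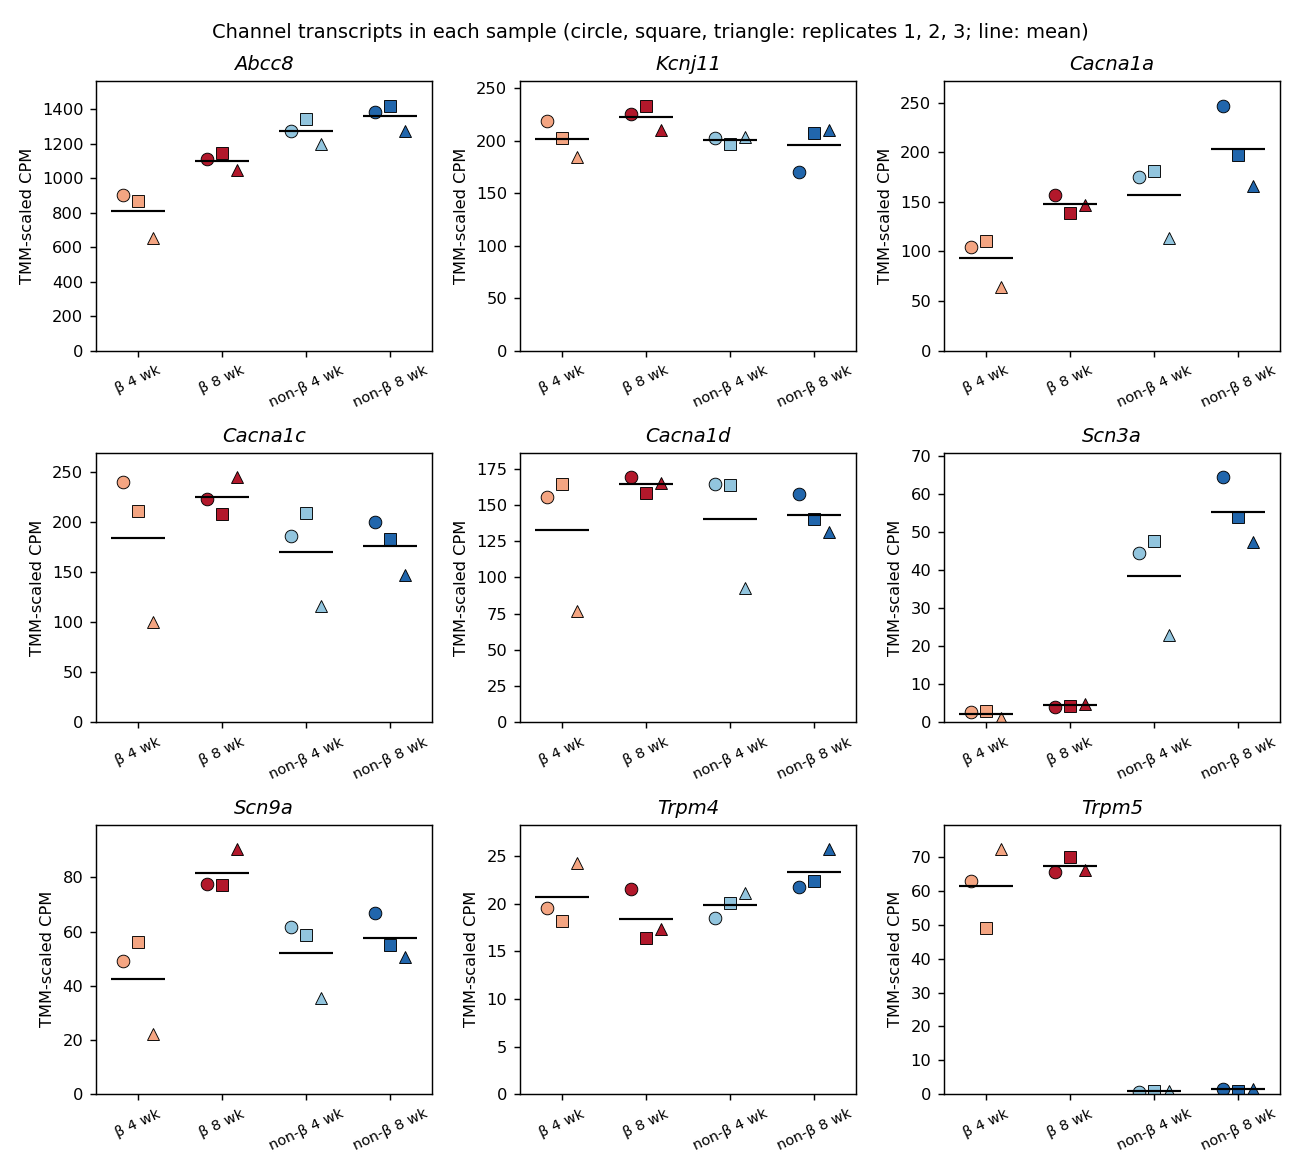
TMM-scaled CPM of each of the 9 genes in every sample, with circles, squares and triangles for replicates 1, 2 and 3 and a line at the mean of each group. Triangles are lowest in both 4-week groups for Cacna1a, Cacna1c, Cacna1d, Scn3a and Scn9a, Trpm5 is at 49.2 to 72.4 CPM in β-cells and 0.574 to 1.64 CPM in non-β-cells, and Scn3a is at 1.00 to 4.95 CPM in β-cells and 23.1 to 64.5 CPM in non-β-cells.

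The sodium channel genes parted between the fractions. Scn3a encodes the tetrodotoxin-sensitive pore Nav1.3 and Scn9a the pore Nav1.7, known for its role in pain-sensing neurons. Both lie on the minus strand of chromosome 2, Scn3a at chr2:65457118-65567627 and Scn9a at chr2:66480080-66634962, 912452 bases apart with 5 protein-coding genes between them, among them the sodium channel genes Scn1a and Scn2a. Scn3a was at 2.78, 3.03 and 1.00 CPM in 4-week and 4.08, 4.38 and 4.95 CPM in 8-week β-cells. In non-β-cells Scn3a was at 44.5, 47.8 and 23.1 CPM at 4 weeks and at 64.5, 54.1 and 47.4 CPM at 8 weeks. The fractions were far apart at both ages, and the β-cell groups did not overlap between ages. Scn3a was lower in β-cells by -4.13 ± 0.55 (log2, SE; limma-voom adjusted p = 5.28e-05) at 4 weeks and by -3.62 ± 0.37 (adjusted p = 4.86e-06) at 8 weeks. Its level in β-cells was 5.90% of that in non-β-cells at 4 weeks and 8.08% at 8 weeks, beside 6.36% and 1.62% for Gcg. Scn3a carried into the β-cell fraction in the proportion of Gcg would be 2.45 CPM at 4 weeks, or 108% of the measured mean, and 0.895 CPM at 8 weeks, or 20.0% of it. Markers of δ-cells gave other proportions. Between fractions Sst (somatostatin) differed by -3.50 at 4 weeks and -3.57 at 8 weeks, beside -4.01 and -5.98 for Gcg. Hhex differed by -3.72 and -4.19, and Rbp4 by -3.69 and -4.06. How much Scn3a came from δ-cells or other non-β-cells was not tested. The age difference of Scn3a was 1.09 (95% interval -0.25 to 2.44) in β-cells and 0.58 (0.08 to 1.08) in non-β-cells, with adjusted p-values of 0.256 and 0.115 in limma-voom. It passed the test in β-cells with DESeq2 (0.96, adjusted p = 0.0304), and without the samples numbered 3 at 4 weeks it was 0.60 there.

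Scn9a was present in both fractions and rose with age in β-cells. It was at 49.0, 56.2 and 22.3 CPM in 4-week and 77.7, 77.2 and 90.5 CPM in 8-week β-cells. In the non-β samples it was at 61.7, 58.7 and 35.6 CPM and then at 66.9, 55.0 and 50.8 CPM. All 8-week β-cell samples lay above all other β-cell and non-β samples. The rise in β-cells was 1.04 ± 0.28 (log2, SE; 2.06-fold, limma-voom adjusted p = 0.0231), against 0.18 ± 0.29 in non-β-cells. Without the 4-week samples numbered 3 the rise was 0.63 (limma-voom adjusted p = 0.00274), and with the trend on transcript length removed it was 0.81 (adjusted p = 0.000133). Leaving out any 1 of the β-cell samples at 8 weeks gave 0.97 to 1.08 with adjusted p-values of 0.0557 to 0.0832 in limma-voom, and a model of the β-cell samples alone gave 0.0533. The age difference of Scn9a in the β fraction, less that in the non-β one, was 0.87 (95% interval -0.01 to 1.74, limma-voom adjusted p = 0.267). This difference passed the threshold with sample quality weights (0.77, limma-voom adjusted p = 0.0288), without the 4-week samples numbered 3 (0.69, 0.0288) and with the length trend removed (0.77, 0.00632). Between fractions at 4 weeks Scn9a differed by -0.36 (limma-voom adjusted p = 0.328), and by -0.31 with the replicate number as a block, where it passed (adjusted p = 0.0487). At 8 weeks the difference was 0.51 (95% interval -0.10 to 1.11), with every β-cell sample above every non-β one.

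The 250 bases before the annotated start of Scn9a, the gene with the largest called rise in β-cells, are chr2:66634963-66635212 on the minus strand and hold 54.4% GC and 1 E-box (CACCTG, in capitals), with no match to the other letters searched.
Scn9a: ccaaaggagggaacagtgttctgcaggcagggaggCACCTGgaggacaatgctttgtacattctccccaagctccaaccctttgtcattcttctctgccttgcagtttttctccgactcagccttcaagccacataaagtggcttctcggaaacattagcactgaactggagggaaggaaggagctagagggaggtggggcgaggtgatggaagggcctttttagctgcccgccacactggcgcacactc

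Trpm5 set the fractions apart more than any other of the 9 genes. TRPM5 is a monovalent cation channel opened by calcium, also known from taste receptor cells, and the gene lies at chr7:143069153-143094642 on the minus strand, overlapping the protein-coding gene Tssc4 on the other strand. Its level was 63.1, 49.2 and 72.4 CPM in 4-week and 65.7, 70.2 and 66.4 CPM in 8-week β-cells. Levels in the non-β fraction were 0.574, 0.979 and 0.838 CPM at 4 weeks and 1.60, 0.896 and 1.64 CPM at 8 weeks, from 12 to 37 counts a library. The lowest β-cell sample was at 49.2 CPM and the highest non-β sample at 1.64 CPM. The difference was 6.28 ± 0.50 (log2, SE; limma-voom adjusted p = 5.07e-07) at 4 weeks and 5.56 ± 0.43 (adjusted p = 3.23e-07) at 8 weeks. In non-β-cells Trpm5 was at 1.29% of its β-cell level at 4 weeks and 2.05% at 8 weeks, beside 1.72% and 2.45% for Ins2. Carried in the proportion of Ins2, it would be 1.06 and 1.65 CPM there, or 133% and 119% of the measured means. With age, Trpm5 differed by 0.15 (95% interval -0.12 to 0.43) in β-cells and by 0.87 (-0.52 to 2.26) in non-β-cells.

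The 250 bases before the annotated start of Trpm5, shown because this gene had the largest difference between fractions, are chr7:143094643-143094892 on the minus strand. They hold 52.8% GC and none of the 5 letter patterns, of which TAATTA was found in 4.84%, TGCTGA in 16.1% and TATAAA in 12.4% of all entries.
Trpm5: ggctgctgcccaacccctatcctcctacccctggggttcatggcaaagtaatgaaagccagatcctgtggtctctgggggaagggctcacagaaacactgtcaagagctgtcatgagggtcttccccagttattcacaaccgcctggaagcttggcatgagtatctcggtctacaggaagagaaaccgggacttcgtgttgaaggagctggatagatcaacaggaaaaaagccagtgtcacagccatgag

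Trpm4, its close relative at chr7:45302632-45333780, passed no test between groups in the fit of all 12 samples, while some alternatives called it between fractions at 8 weeks. TRPM4 is likewise opened by calcium and passes monovalent cations. Its level was 19.5, 18.2 and 24.3 CPM in 4-week and 21.6, 16.4 and 17.4 CPM in 8-week β-cells. The non-β samples were at 18.5, 20.1 and 21.1 CPM at 4 weeks and 21.8, 22.4 and 25.8 CPM at 8 weeks. The non-β groups did not overlap between ages, and the β-cell groups did. The age differences were -0.17 (95% interval -0.49 to 0.15) in β-cells and 0.23 (-0.09 to 0.56) in non-β-cells, and neither passed the test. Between fractions Trpm4 differed by 0.05 (-0.27 to 0.37) at 4 weeks and by -0.35 (-0.68 to -0.03, limma-voom adjusted p = 0.0684) at 8 weeks.

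At 8 weeks the β-cell and non-β groups did not overlap for 8 of the 9 genes, all but Kcnj11. Such a gap was present for 64.8% of all tested genes. Cacna1c, Cacna1d, Scn9a and Trpm5 were higher in β-cells, and Abcc8, Cacna1a, Scn3a and Trpm4 were lower. At 4 weeks the fractions did not overlap for 4 genes, against 53.2% of all genes, and between ages they did not overlap for 4 genes in β-cells (40.3%) and for 1 in non-β-cells (32.8%). The number that passed the test at 8 weeks differed between models. The model of all 12 samples called 2, and a model of the 8-week samples alone called 7, among them Abcc8 (-0.31, limma-voom adjusted p = 0.00684), Cacna1a (-0.46, 0.0122), Scn9a (0.49, 0.00458) and Trpm4 (-0.37, 0.0445). Leaving out both 4-week samples numbered 3 gave 8 calls, including Cacna1c (0.36, limma-voom adjusted p = 0.0136) and Cacna1d (0.20, 0.0431).

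Levels of different genes were compared per kb of the longest coding transcript. Abcc8 was highest in every group, with means of 165 to 279 CPM per kb, and Kcnj11 was second with 62.4 to 70.9 CPM per kb. Neither overlapped its neighbour in that order in any group. The 3 calcium channel genes followed with 11.7 to 25.7 CPM per kb, and in β-cells Trpm5 lay among them at 14.9 ± 2.83 and 16.4 ± 0.591 CPM per kb (SD, n = 3). In β-cells at both ages, Cacna1a, Cacna1c, Cacna1d and Trpm5 overlapped with their neighbours in the order. Scn9a (4.32 to 8.31 CPM per kb) and Trpm4 (4.36 to 5.51) came next, and Scn3a joined them in non-β-cells at 4.02 ± 1.40 and 5.79 ± 0.903 CPM per kb. The lowest was Scn3a in β-cells, at 0.238 ± 0.116 and 0.468 ± 0.0460 CPM per kb, and Trpm5 in non-β-cells, at 0.193 ± 0.0498 and 0.335 ± 0.102 CPM per kb. The annotation lists shorter coding transcripts for several of these genes, and the median coding length of Abcc8 is 630 bases against 4877 for the longest, so the order of levels holds for the longest transcript.

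Ratios of 2 channel genes within a library do not depend on how libraries were scaled. Each of the 5 ratios examined differed between fractions in an exact permutation test with fraction labels permuted within age (400 arrangements, two-sided p = 0.005, the smallest possible, and 0.005 after Benjamini-Hochberg adjustment over 5 ratios). The log2 ratio of Kcnj11 to Abcc8 was -1.99 ± 0.14 and -2.31 ± 0.01 (SD, n = 3) in β-cells at 4 and 8 weeks and -2.66 ± 0.10 and -2.80 ± 0.22 in non-β-cells, a mean difference of 0.58 between fractions. Per kb, Kcnj11 was thus at 0.391 and 0.314 of Abcc8 in β-cells and at 0.246 and 0.223 in non-β-cells. The mean difference was -3.96 for Scn3a to Scn9a, -0.65 for Cacna1a to Cacna1d and 6.09 for Trpm5 to Trpm4. It was 0.16 for Cacna1c to Cacna1d, the smallest of the 5 and not past the threshold without non-β replicate 1 at 4 weeks (0.14, exact permutation test, adjusted p = 0.065).

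For age, an exact test of 3 against 3 samples cannot give a p below 0.1, so these ratios are described. The ratio of Kcnj11 to Abcc8 was lower at 8 weeks in β-cells by -0.32 without overlap. That of Cacna1a to Cacna1d was higher at 8 weeks by 0.32 in both fractions, again without overlap. That of Scn3a to Scn9a was higher by 0.40 in non-β-cells, from -0.46 ± 0.16 to -0.06 ± 0.04 (log2, SD, n = 3), and by 0.07 in β-cells, where the ages overlapped. The changes without overlap had the smallest possible p of 0.1, and the last had p = 0.7 (exact permutation tests, two-sided).

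**Figure D4:**
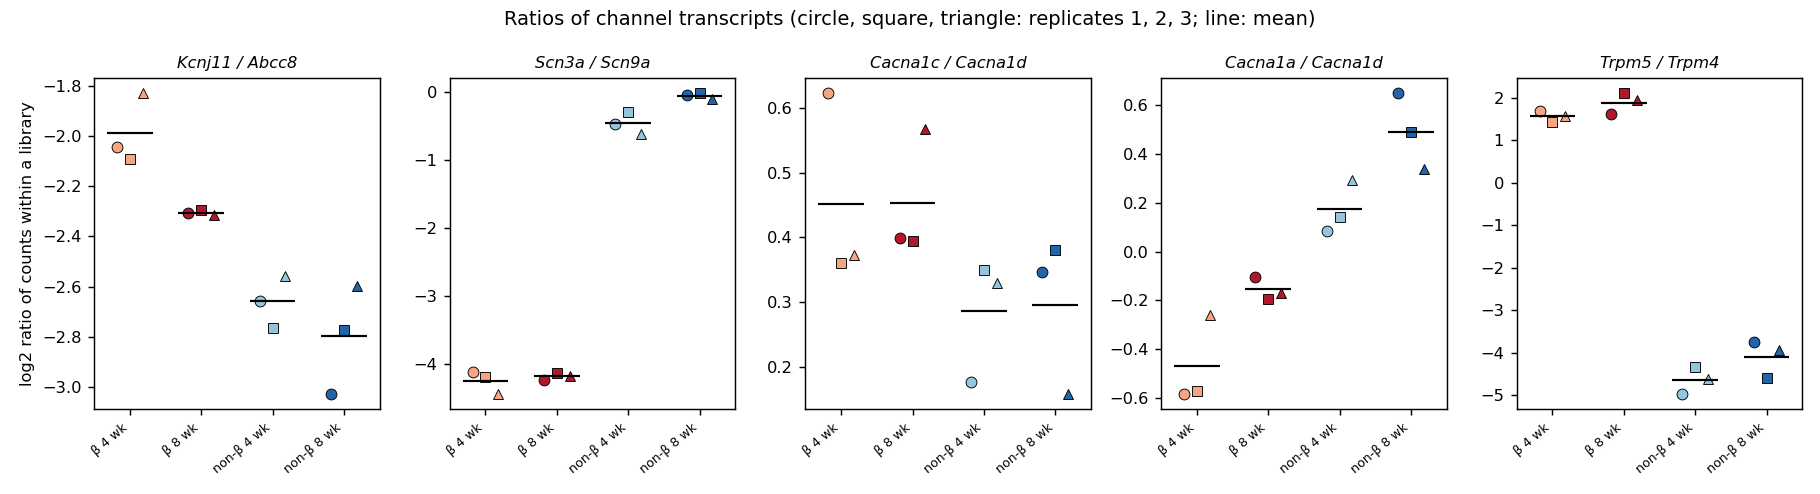
Log2 ratio of the counts of 2 channel genes within each library, for 5 pairs, with circles, squares and triangles for replicates 1, 2 and 3 and a line at the mean of each group. The fractions are separate for Scn3a to Scn9a (at most -4.13 in β-cells, at least -0.62 in non-β-cells) and for Trpm5 to Trpm4 (at least 1.43 and at most -3.75). They are also separate for Kcnj11 to Abcc8 and Cacna1a to Cacna1d. For Cacna1c to Cacna1d they overlap across ages but not within an age. There β-cells are at least 0.361 and non-β-cells at most 0.350 at 4 weeks, and 0.394 and 0.380 at 8 weeks.

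Other channel and calcium-handling genes were counted in 8 lists, 172 genes in all, of which 114 were tested. Between fractions, 23 were higher and 55 lower in β-cells at 4 weeks, and 20 were higher and 56 lower at 8 weeks, with median log2 differences of -0.65 and -0.74 beside 0.00 and 0.01 over all genes. Of all tested genes, 24.9% and 23.7% were called higher and lower at 4 weeks, and 23.6% and 25.6% at 8 weeks. With age, 8 of the 114 rose and 6 fell in β-cells, where 8.59% of all tested genes rose and 9.35% fell. In non-β-cells 19 rose and 7 fell, where 11.6% of all tested genes rose and 4.80% fell.

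Genes named as auxiliary subunits of calcium channels were mostly lower in β-cells. Of 11 tested, 10 were lower in β-cells at each age, among them Cacna2d3 by -3.26 at 4 weeks and -4.73 at 8 weeks. Cacng4 was lower by -3.86 and -4.90. The list follows gene names, and whether each product joins a calcium channel was not tested. Of 5 other pore genes, 4 were lower at each age, led by the T-type pores Cacna1i and Cacna1h. Cacna1h was at 1.74 ± 1.11 and 2.53 ± 0.746 CPM in β-cells and at 20.9 ± 2.59 and 46.5 ± 7.27 CPM in non-β-cells (SD, n = 3). The same list rose with age in non-β-cells for 4 of 5 genes, by 2.05 for Cacna1e (R-type), 1.27 for Cacna1g and 1.14 for Cacna1h. Over the same non-β samples all 4 endothelial markers rose (by 3.06 to 3.84), as did all 5 mesenchymal ones (by 1.65 to 5.38), 3 of 4 acinar and 2 of 3 duct markers, and their part in these rises was not tested. Cacna1g also rose in β-cells, by 1.85 (limma-voom adjusted p = 0.0112), from 1.34 ± 0.316 to 4.81 ± 0.853 CPM.

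Genes of other sodium channel subunits, pores among them, and of the sodium leak channel also differed between fractions. Of 8 tested genes, 6 were lower and 1 was higher in β-cells at 4 weeks, and 4 were lower at 8 weeks, led at that age by the β subunit gene Scn3b at -3.19. The sodium leak channel gene Nalcn rose in β-cells with age by 1.09 (limma-voom adjusted p = 0.0102). In non-β-cells limma-voom called 0 genes of this list for age, with 1 at an unadjusted p under 0.05, and the median was 0.06.

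Among potassium channels, the other inward rectifier and two-pore genes were lower in β-cells for 12 of 16 and higher for 1, Kcnj12, at each age. Kcnj12, an inward rectifier pore, was at 24.4 ± 4.65 and 20.3 ± 2.86 CPM in β-cells and at most 0.690 CPM in any non-β sample. Kcnj3, a G protein-gated pore, was at 1.38 ± 0.172 and 0.563 ± 0.410 CPM in β-cells and at 22.2 ± 2.91 and 21.8 ± 3.61 CPM in non-β-cells. Of 27 voltage-gated and calcium-activated potassium channel genes, 6 were higher and 10 lower in β-cells at 4 weeks, and 6 and 11 at 8 weeks. In β-cells with age, 4 of them rose and 1 fell, Kcnh1 by -0.78.

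TRP channels beside the members gave 3 genes higher and 3 lower in β-cells of 12 tested at 4 weeks, and 3 and 4 at 8 weeks. Trpa1, an irritant sensor, was lower by -3.57 and -3.81. For age in β-cells limma-voom called 0 of them, with 2 at an unadjusted p under 0.05, and their median there was 0.38. Chloride and HCN channel genes were split, with 5 higher and 4 lower of 17 at 4 weeks and 4 and 7 at 8 weeks. Of 18 genes of calcium stores, extrusion and coupling, 7 at 4 weeks and 6 at 8 weeks were higher in β-cells, including the SERCA pump gene Atp2a2 by 2.70 and 2.83.

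Further genes rose with age in the non-β samples in which markers of other cell types rose. The anion channel gene Cftr rose by 3.20, Ano1 (a calcium-activated chloride channel) by 2.93 and Kcnj8, a vascular ATP-sensitive channel pore, by 2.18. Over the same samples the summed CPM of 4 endothelial markers went from 27.9 to 58.8 at 4 weeks to 232 to 668 at 8 weeks. That of 5 mesenchymal markers went from 98.5 to 280 to 619 to 984, and that of 4 acinar markers from 34.1 to 73.7 to 159 to 526. Of 3 duct markers, Krt19 rose by 3.74 and Sox9 by 1.42, and the sum of the 3 went from 236 to 323 to 325 to 401. Most of that sum was Krt7, at 260 ± 46.7 and 343 ± 49.8 CPM (SD, n = 3). Krt7 was not called for age there (0.41, limma-voom adjusted p = 0.0912) and was higher in β-cells, at 857 and 740 CPM. No marker of these 4 lists was at 0 in all samples of a group, and their part in these rises was not tested. Of 6 leukocyte markers, Ptprc (the gene of CD45), Cd3e, Lyz2 and Itgam had group means of at most 0.454 CPM, and Ptprc was at 0 in every 8-week β-cell sample. The other markers were Cd79a, at most 3.58 CPM on average, and Cd68, a lysosomal protein gene, at 48.8 ± 1.31 and 69.6 ± 5.12 CPM in β-cells (SD, n = 3), which rose with age in both fractions (by 0.51 and 0.81).

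**Figure D5:**
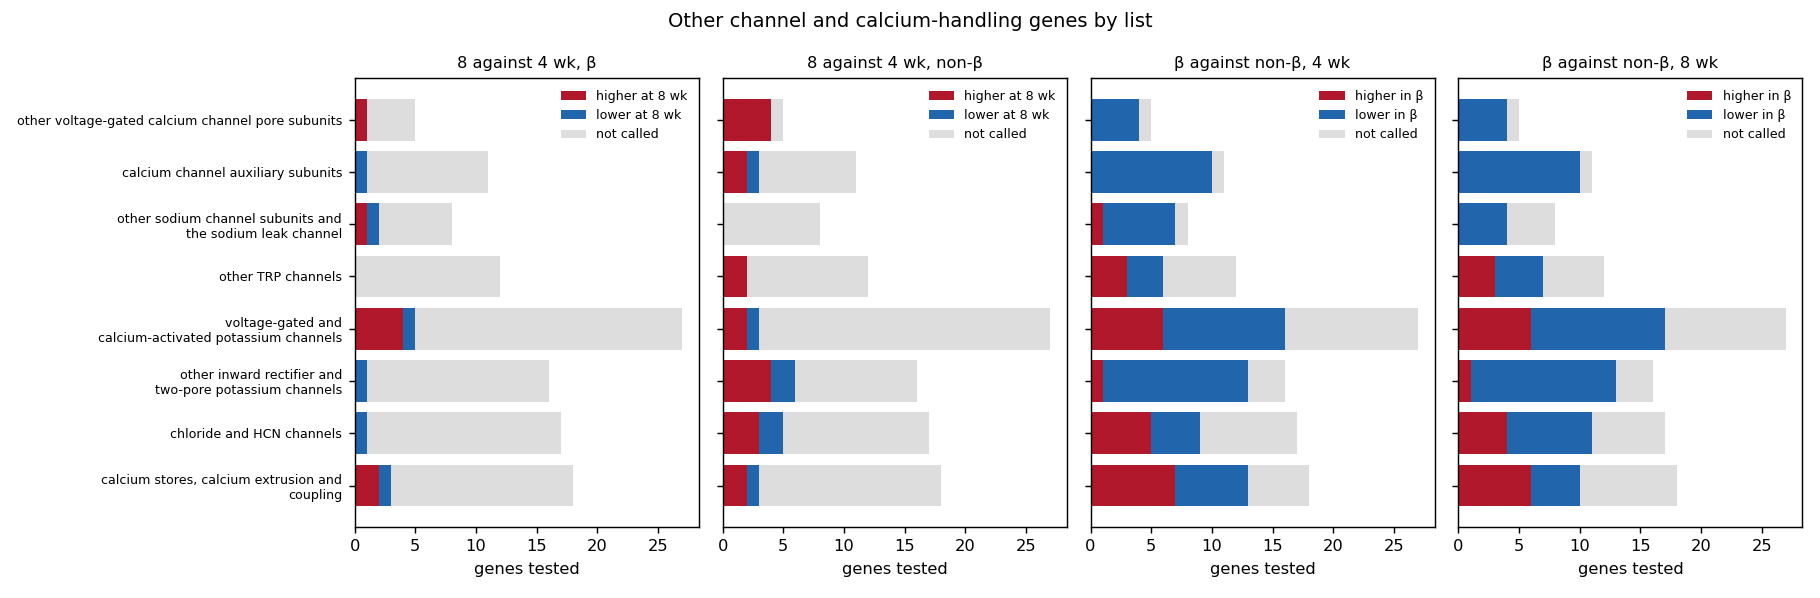
Number of tested genes in each of 8 lists of other channel and calcium-handling genes that were called higher (red), lower (blue) or not called (grey) in each of 4 comparisons, at an adjusted p under 0.05. Between fractions, blue covers 10 of 11 genes named as calcium channel auxiliary subunits and 12 of 16 other inward rectifier and two-pore potassium channels at both ages.

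The genes whose log2 CPM followed each channel gene most closely over the 12 samples were taken from 9804 genes with a mean log2 CPM of at least 3. Scn3a was followed by Kcnh6, an ether-a-go-go related potassium channel, with a Pearson correlation of 0.998, and then by Ocrl and Pak3. Kcnh6 was at 24.7 ± 7.01 and 39.2 ± 1.82 CPM in β-cells and at 138 ± 30.0 and 166 ± 14.8 CPM in non-β-cells (SD, n = 3). Trpm5 was followed by Ttyh2 (0.995), Edem1 and Arhgap36, Abcc8 by Slc4a8 (0.981), Sept8 and Psd, and Cacna1a by St18, Csmd2 and Zfp275. Cacna1c was followed by Dmxl2, Spg11 and Lyst, Cacna1d by Vps13b, Arfgef3 and Arhgef12, and Scn9a by Usp9x, Fyco1 and Syt14, all with correlations of 0.962 to 0.982. Cryz and Man2b2 were among the 3 genes closest to Kcnj11. Trpm4 had the weakest partners, with 0.877 for Stk11 and lower values for Dynll1 and Tada2a. These correlations describe 12 samples in 4 groups and share the fraction differences and the low samples numbered 3.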

How the data were processed

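RNA of 12 samples was sequenced by the authors as single-end reads from stranded libraries made with a kit for picogram inputs. According to the methods and the submitters' processing notes, the authors trimmed reads with fastp, assigned them to Ensembl 98 transcripts (GRCm38) with kallisto and summed them to genes with tximport, and deposited estimated counts per gene, neither scaled nor filtered. Versions are not given in the sources used here. Counting of reads shared by paralogs or overlapping genes was left to kallisto, so values of Trpm5 and Tssc4, or of the sodium channel paralogs, carry that uncertainty.

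Estimated counts were rounded. Genes with a CPM above 1 in at least 3 samples were kept, scaled by TMM (edgeR 4.0.16) and tested two-sided by voom in limma 3.58.1 under R 4.3.3, with a mean for each group, following the study's filter and test. The p-values measure the spread between pools of mice, and replicates of every group differed beyond counting noise (chi-square per degree of freedom 7.79 to 88.5). Log2 CPM used a prior count of 2. Ratios used an offset of 0.5 and exact permutation tests. Symbols, positions counted from 1 and lengths came from GENCODE M21, with 51916 of 52962 identifiers matched and lengths for 98.7% of tested genes. Depth was 13755106 to 27040652 estimated counts. The test was tried on simulated counts with known changes.

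The digit in a sample's description numbers the replicates. Over genes with a mean log2 CPM of at least 3, β-cell and non-β samples of equal number had correlated deviations at 4 weeks (0.292 to 0.673), where samples of unequal number among replicates 1 and 2 did too (0.259 and 0.434), but not at 8 weeks (-0.071 to 0.164), so a block on the number was run as an alternative. Other alternatives were DESeq2 1.42.0 and its size factors, the quasi-likelihood test of edgeR, total counts, other filters, sample quality weights, removal of hormone and mitochondrial genes, models of only the groups compared, and leaving out samples. A correction that took the trend with transcript length out of every library was chosen after seeing the data.

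Named were the 9 genes in every comparison, up to 3 called genes with the largest difference per list of other channels and comparison, and the 3 genes most correlated with each of the 9. Genes and lists were chosen with earlier results of these data known. Values of a few genes that these rules name are not reported here.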

Additional observations from a re-analysis of the deposited data

Results flagged for a closer look

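For none of the 9 channel genes did limma-voom call a difference between the fractions in the change with age (1 of 9 at an unadjusted p under 0.05), but for 5 of the 114 other channel and calcium-handling genes tested it did, and 4 of these are given here. Each was flagged because the difference, the change in β-cells less that of the other fraction, had a limma-voom adjusted p under 0.05, as it did for 5.13% of all tested genes. Groups of 3 samples were too small to be tested for single samples that stand apart. No explanation was tested.

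For Gjd2, which encodes connexin 36, the gap junction protein that couples β-cells, the difference was 0.76 (log2; adjusted p = 0.0368). Its level stayed at 114 ± 15.7 and 116 ± 2.70 CPM in β-cells (SD, n = 3) and fell in non-β-cells from 24.1 ± 2.23 to 14.6 ± 1.36 CPM (-0.74). For Stim2, a calcium sensor of the endoplasmic reticulum, the difference was -0.72 (limma-voom adjusted p = 0.043), with a fall of 0.58 in β-cells, from 41.5 ± 0.944 to 27.7 ± 1.30 CPM.

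For Kcnk3, the two-pore channel TASK-1, the difference was -1.18 (limma-voom adjusted p = 0.0405), with falls of 1.68 in the β and 0.50 in the non-β fraction. Its level was 10.4 ± 0.705 and 3.42 ± 1.01 CPM in β-cells and 126 ± 8.82 and 89.9 ± 13.0 CPM in non-β-cells. Between fractions Kcnk3 differed by -3.59 at 4 weeks and -4.77 at 8 weeks. For Gcg, which fell in β-cells with age (-1.80), these differences were -4.01 and -5.98, and for Sst they were -3.50 and -3.57. The part of RNA carried over from non-β-cells in the β-cell level of Kcnk3 and its fall was not tested.

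For Kcnq1, a voltage-gated potassium channel pore, the difference was -4.29 (limma-voom adjusted p = 0.0438). It rests on low levels, at 0.934 ± 0.0538 and 1.09 ± 0.209 CPM in β-cells, 0 to 0.444 CPM in 4-week and 2.36 to 4.76 CPM in 8-week non-β samples, over the same samples in which endothelial and mesenchymal markers rose in the non-β fraction, whose part was not tested.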

How the results depend on the processing

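Each comparison was repeated under the alternatives named above. The counts of channel genes called were 3 for age in β-cells, 0 for age in non-β-cells, 4 and 2 between fractions at 4 and 8 weeks, and 0 for the interaction. Leaving out 1 sample at a time gave 0 to 3, 0 to 0, 3 to 4, 2 to 3 and 0 to 0. The 0 came without β-cell replicate 1 or 2 at 8 weeks, and 1 without replicate 3. With only the groups compared, the counts were 1 for age in β-cells and 7 at 8 weeks. Sample quality weights gave 7 at 8 weeks and 1 for the interaction, and leaving out both 4-week samples numbered 3 gave 8 and 1. DESeq2 gave 1 for age in non-β-cells. With the trend on transcript length removed, chosen after seeing the data, the counts were 2 for age in non-β-cells, 5 at 8 weeks and 1 for the interaction, and 2, 6 and 1 with the replicate block as well. The replicate block alone gave 1 (Scn3a, 0.56) for age in non-β-cells, 7 at 8 weeks and 2 (Abcc8, 0.37, and Scn9a, 0.82) for the interaction. Between fractions at 4 weeks it added Scn9a and changed no other call. Whether the numbers mark shared preparations is not given in the labels. The causes were not tested.

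Directions changed in differences that had not passed the test. For age in β-cells, Cacna1c was -0.0015 without both samples numbered 3 and -0.0017 to 0.61 over single omissions, and Trpm5 -0.025 to 0.28. For age in non-β-cells, the values with quality weights, without both samples, with the length trend removed and with that and the block were -0.077, -0.16, -0.11 and -0.11 for Cacna1c, and -0.15, -0.19, -0.044 and -0.046 for Cacna1d. Scn9a was -0.07 and -0.058 under the first 2 of these, and Kcnj11 0.02 with quality weights. Single omissions gave -0.16 to 0.25 for Cacna1c, -0.20 to 0.21 for Cacna1d, -0.062 to 0.30 for Scn9a and -0.093 to 0.056 for Kcnj11. Between fractions at 4 weeks, Kcnj11 was -0.0012 with DESeq2 and -0.0044 with its size factors, Trpm4 -0.023 without both samples, and with the length trend removed, without and with the block, Cacna1d was 0.28 and 0.28 and Scn9a 0.088 and 0.11. Single omissions there gave -0.061 to 0.067 for Kcnj11, -0.19 to 0.44 for Cacna1c, -0.38 to 0.24 for Cacna1d, -0.63 to 0.05 for Scn9a and -0.072 to 0.14 for Trpm4. For the interaction they gave -0.082 to 0.55 for Cacna1c and -0.036 to 0.58 for Cacna1d.

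Among the ratios, Scn3a to Scn9a in β-cells with age was -0.023 without both samples numbered 3 (single omissions -0.023 to 0.13), and Cacna1c to Cacna1d was -0.038 (single omissions -0.055 to 0.087 in β-cells and -0.045 to 0.077 in non-β-cells). Between fractions, single omissions gave 0.12 to 0.19 for Cacna1c to Cacna1d. Of the repeated differences of single genes, 792 kept direction and call, 52 gained a call, 16 lost one and 40 changed direction. Low counts limit Trpm5 in non-β-cells and Scn3a in β-cells.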
